A study of Mus musculus with 6 samples.

Results

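Integrins, laminins and the proteins of focal adhesions were followed as a group of 46 genes in the cerebral cortex of mouse embryos, chosen by gene symbol: 16 integrin subunits, 7 laminin chains, 5 other matrix genes and 18 genes of the adhesion plaque. Of these, 44 had a row of the array that named no other gene, and 42 passed the filter on dim rows, out of 22180 genes with such a row and 16724 genes tested. RNA came from dissected cortices at E12.5, and the labels state that every sample was a different embryo. The 3 DKO (double knock-out) embryos were Lats1F/F;Lats2F/F;Nestin-Cre, and the 3 others are labelled control, with no genotype given for them, so whether controls carried floxed alleles or Cre is not given in the sources used here. Nestin-Cre acts in neural progenitors and the cells that descend from them, so blood vessels, meninges and blood cells of the same dissected tissue are not its main target. Each embryo was measured on 1 Affymetrix whole-transcript array, and signals are given as log2 values after RMA (robust multi-array average).

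Integrins are receptors made of an alpha and a beta subunit that hold cells to the extracellular matrix. Laminins, trimers of an alpha, a beta and a gamma chain, build the basement membrane together with nidogens and perlecan; in the embryonic cortex the end feet of radial glia attach to the basement membrane below the meninges, and vessels carry one of their own. Inside the cell, talin and kindlin bind the tails of beta subunits, and vinculin, zyxin, paxillin and the kinases Src and Fak connect the receptors to actin and to signalling. The Hippo kinases Lats1 and Lats2 hold the coactivators YAP and TAZ in check, and genes of adhesion and the cytoskeleton are among the known targets of YAP and TAZ.

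Some features of the arrays touch the members. The targeted gene Lats1 had a mean of 8.71 ± 0.33 (SD, n = 3) in control and 7.79 ± 0.05 (SD, n = 3) in DKO, whereas Lats2 was at 7.03 ± 0.17 (SD, n = 3) and 7.27 ± 0.09 (SD, n = 3); whether the Lats2 probes lie in the deleted part is not given in the sources used here. The 12 cortical progenitor markers with a row (of 13 listed) and the 12 neuron markers were all above the filter. Pax6, for example, was at 9.70 ± 0.12 (SD, n = 3) in control and 9.63 ± 0.05 (SD, n = 3) in DKO. The progenitor markers did not all stay level: 5 means were higher and 7 lower in DKO, with 0 genes that rose and 1 that fell. The latter was Hes5, with a log2 difference of -0.90 ± 0.09 (SE, limma adjusted p 0.00197). DKO 2 stood apart in markers of other cell types. Over the 18 endothelial and pericyte markers the summed linear signal was 3474 to 3817 in the control arrays. It was 3289 in DKO 1, 3420 in DKO 3 and only 2449 in DKO 2, all below the controls. All 18 means were lower in DKO and 0 genes passed, with a median difference of -0.19, or -0.08 without DKO 2. The median marker lay 0.53 below its control mean in DKO 2 for endothelium and pericytes, and 0.61 (15 markers of meninges and mesenchyme), 0.40 (9 of microglia and macrophages) and 0.53 (6 of the erythroid and platelet lists) below it for the others. DKO 1 stood apart too, in the meninges and mesenchyme list. Its summed linear signal there was 3612, above the 2573 to 3160 of the control arrays, with 2077 in DKO 2 and 2802 in DKO 3. In that list 5 means were higher and 10 lower in DKO, and 1 gene rose, Ogn (limma adjusted p 0.0303). The choroid plexus and neuron lists also differed between the groups in their sums. The 14 choroid plexus and hem markers with a row (of 15 listed) had a summed linear signal of 869 to 1071 in control and 1282 to 2318 in DKO arrays. Of their means 13 were higher and 1 lower, with a median difference of 0.42, and 3 genes rose: Ttr, Lmx1a and Bmp6. These sums lean on Ttr, at 6.74, 7.21 and 6.74 in control and 8.84, 10.25 and 8.33 in DKO. Of the 6 fits without 1 array, 2 called Ttr, 3 Lmx1a and 1 Bmp6. Folr1, Kcne2 and Kl of the same list were at 0.26, 0.04 and -0.15, not past the threshold. The 12 neuron markers had 13458 to 14493 in control and 11525 to 12491 in DKO, with all 12 means lower and 0 genes that passed. Surface epithelium markers (10 with a row, of 11 listed) lay at 451 to 496 in control and 460 to 476 in DKO. No array measured these markers in separate cells, so fewer cells of a type and less RNA per cell cannot be told apart. For each member whose difference moved by over 1.5 times or turned in sign when DKO 2 was omitted, the value without it is given as well. Both groups held embryos with high Xist and embryos with low Xist, a marker of females.

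In DKO cortex 4 of the 42 tested members rose and 0 fell (limma, two-sided, Benjamini-Hochberg adjusted p under 0.05 over all 16724 genes). They were Itgb8, Tln1, Tln2 and Zyx, which is 9.52% of the members, while 1.36% of all genes rose, 0.359% fell and 1.72% changed in either direction. At an unadjusted limma p under 0.05, 12 members had higher and 1 had lower means, or 28.6% and 2.38% of the members against 6.39% and 9.18% of all genes tested. All DKO arrays lay above all control arrays for 11 members (26.2%, against 8.22% of all genes), and below them for 3 (7.14%, against 13.4%). The DKO mean was higher for 24 members (57.1%, against 39.8% of all genes), and the median log2 difference of the 42 members was 0.03, against -0.03 for all genes. These counts describe a group chosen with earlier results of these data known, and they were not tested as a set.

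**Figure D1:**
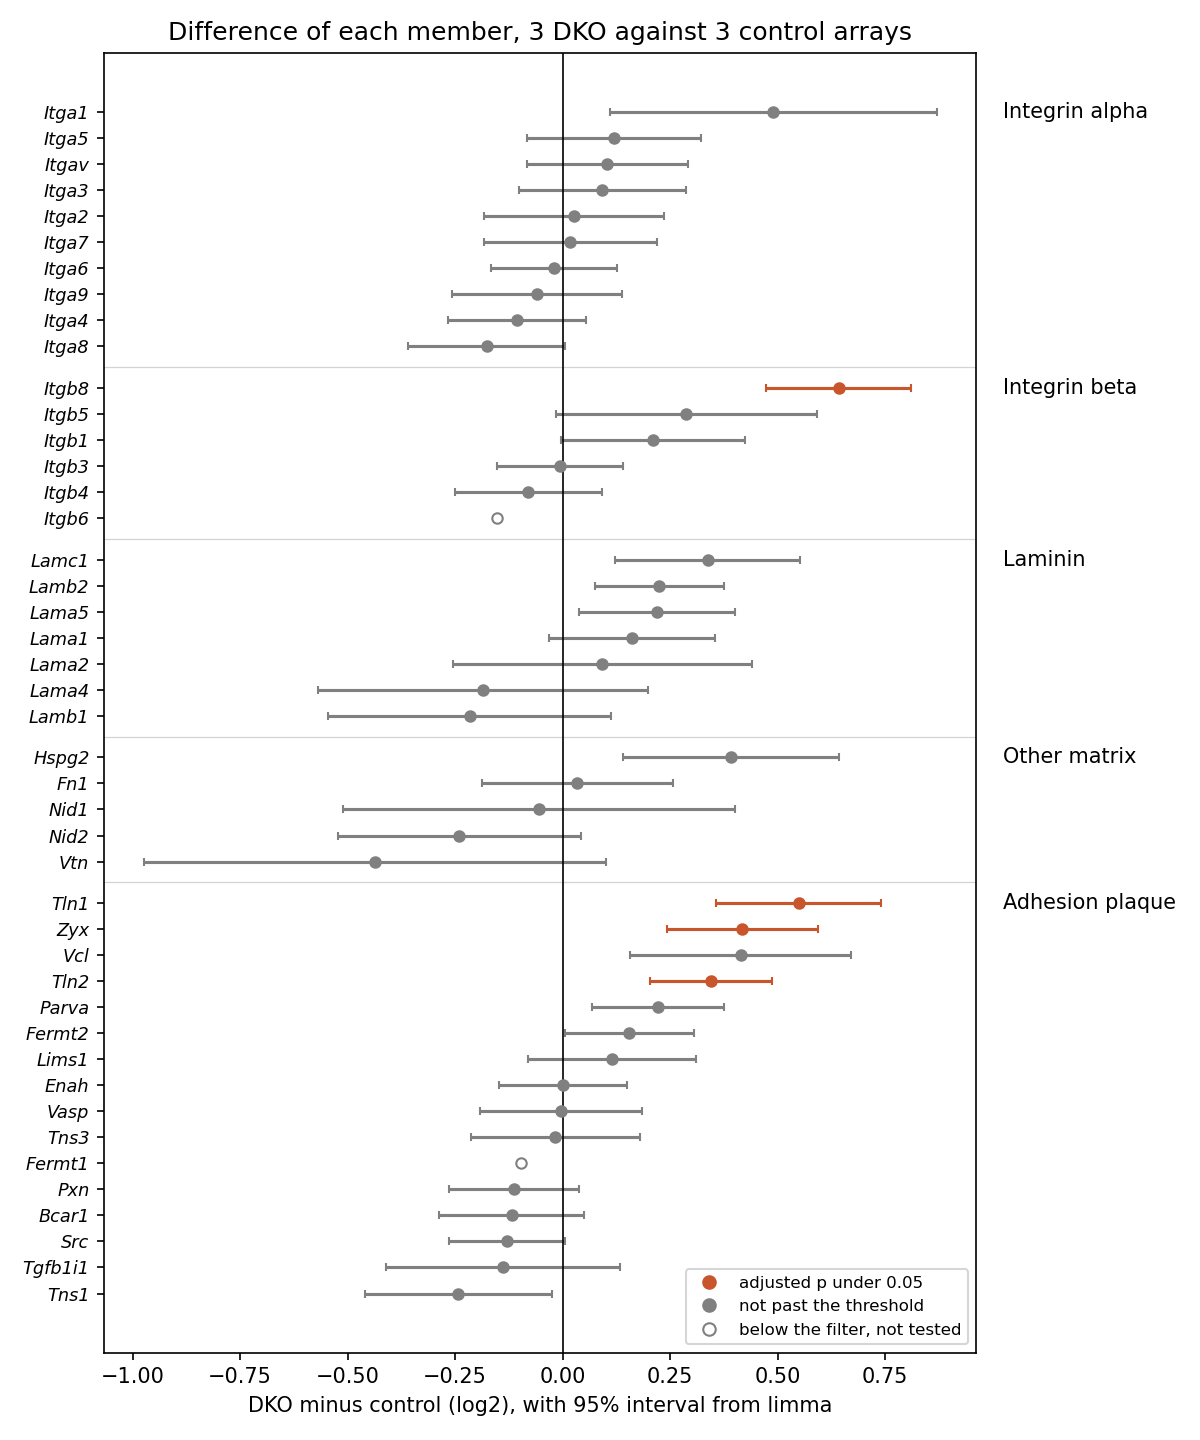
The log2 difference of DKO minus control (x axis) of the 44 members with a row, ordered by role, with 95% limma intervals over 3 against 3 arrays. The 4 members past the threshold are orange, and the open points of Itgb6 and Fermt1 are rows below the filter that were not tested.

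For 3 of the 4 members that rose, the RefSeq promoter table (GRCm38.p6) held an entry, and the 250 bases before the transcription start are shown because these genes were higher together in the same DKO arrays. Capitals mark a match to GGAATG (the core bound by TEAD factors, the DNA-binding partners of YAP and TAZ, on either strand) or to TGANTCA (the palindromic AP-1 site). The windows are chr12:119238277-119238526 (minus strand), chr4:43562584-43562833 (minus strand) and chr6:42349578-42349827 (plus strand), each written 5′ to 3′ along the gene.
Itgb8: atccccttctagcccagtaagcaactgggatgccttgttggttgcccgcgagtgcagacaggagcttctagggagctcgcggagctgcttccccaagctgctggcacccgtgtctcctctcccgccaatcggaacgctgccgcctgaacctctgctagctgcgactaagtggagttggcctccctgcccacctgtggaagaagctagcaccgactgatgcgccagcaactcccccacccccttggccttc
Tln1: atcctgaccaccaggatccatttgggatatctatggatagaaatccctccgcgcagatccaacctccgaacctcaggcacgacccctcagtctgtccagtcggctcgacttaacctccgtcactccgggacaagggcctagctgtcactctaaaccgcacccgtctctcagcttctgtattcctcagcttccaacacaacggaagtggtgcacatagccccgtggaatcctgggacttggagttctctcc
Zyx: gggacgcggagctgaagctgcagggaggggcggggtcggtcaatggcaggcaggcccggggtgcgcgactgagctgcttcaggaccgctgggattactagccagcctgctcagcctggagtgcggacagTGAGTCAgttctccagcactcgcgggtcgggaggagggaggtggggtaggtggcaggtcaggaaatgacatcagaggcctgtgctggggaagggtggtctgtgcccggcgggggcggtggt

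Only the Zyx window held a match, 1 AP-1 letter match that begins 121 bases before the start, and 0 of the 3 windows held GGAATG. Among the 38 promoters of the 32 members in the table, 4 held GGAATG (10.5%, against 12.6% of 32851 promoters) and 1 held TGANTCA (2.63%, against 6.75%). The 4 with GGAATG were those of Itgb1, Nid1, Vcl and Vtn. The wide form of the CArG box of serum response factor was matched in 34 of the 38 (89.5%) and in 67.1% of all promoters, a share too high to set genes apart. A match is a run of letters and not a bound site, and a window without a match says nothing of binding elsewhere.

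Among the beta subunits, Itgb8 rose. Itgb8 encodes the subunit that pairs with the alpha-v chain, is made by neuroepithelial cells and radial glia, and is known for releasing active TGF-beta from its latent complex and for its need in the growth of brain vessels. Its signal was 8.71, 8.65 and 8.81 in control and 9.42, 9.26 and 9.41 in DKO cortex. The lowest DKO array lay above the highest control array. The log2 difference was 0.64 ± 0.07 (SE), or 1.56-fold, with a limma adjusted p of 0.00391. Omitting any single array kept the call of Itgb8 (6 of 6 fits, limma adjusted p from 0.00459 to 0.0263), and its difference was 0.69 without DKO 2. In the Xist-high embryos (1 DKO, 2 control) the difference was 0.65, and in the Xist-low embryos (2 DKO, 1 control) it was 0.70. As the groups did not overlap, both differences had to be positive, and a part of sex in them was not tested.

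**Figure D2:**
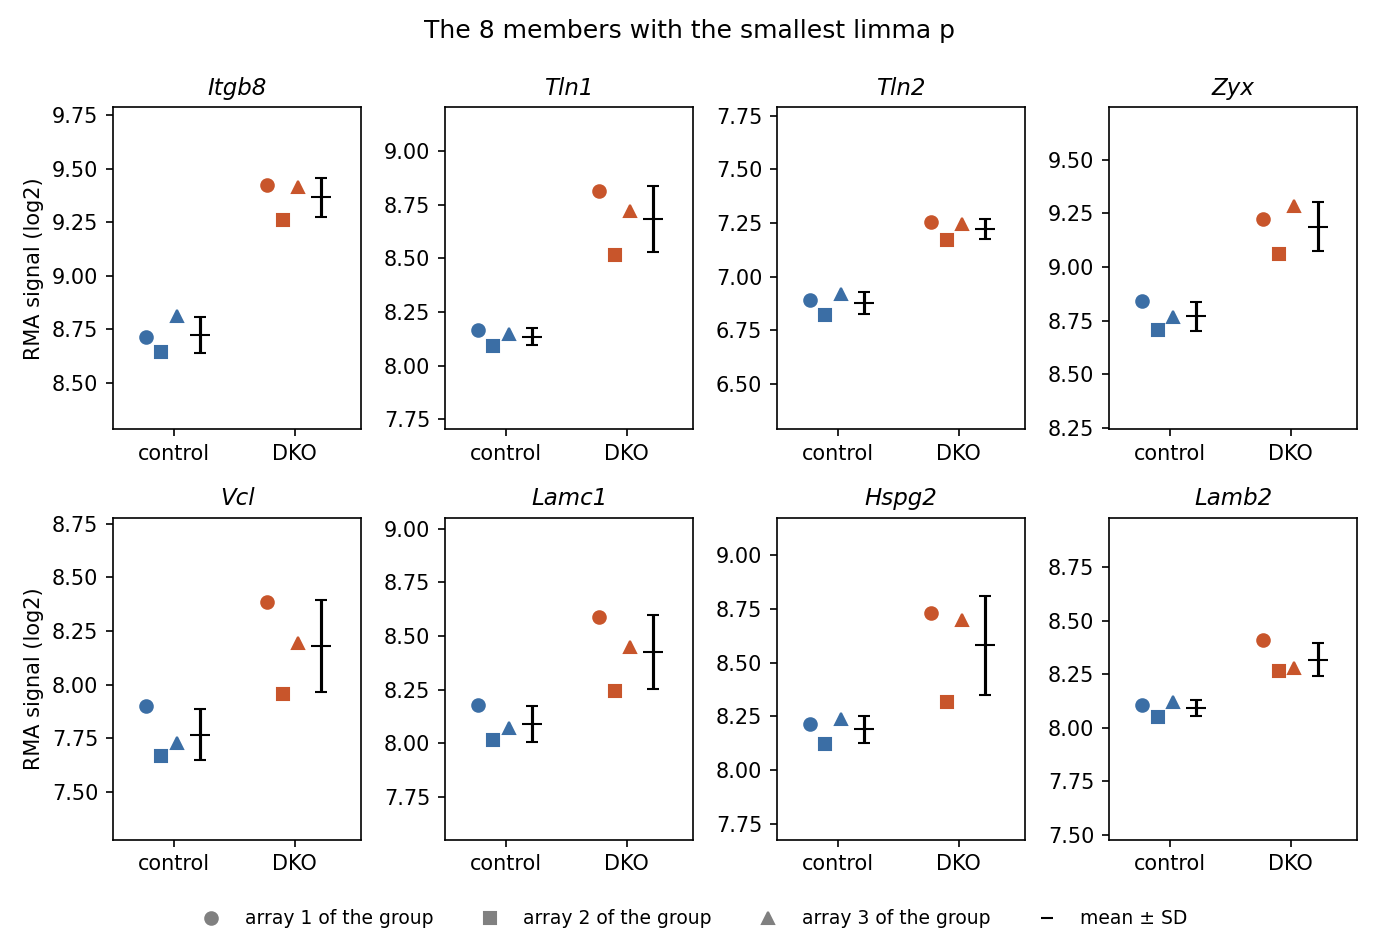
RMA signal (log2, y axis) of the 8 members with the smallest limma p in control (blue) and DKO (orange) arrays. Each point is 1 embryo, with the mean ± SD of 3 beside them, and the array number was not used to pair arrays between groups. In all 8 panels the DKO points lie above the control points, and DKO 2 (square) is the lowest of the DKO points.

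The other beta subunits did not pass the test. Itgb1, the partner of most alpha chains and of most laminin receptors, was at 8.74, 8.70 and 8.71 in control and at 9.05, 8.71 and 9.03 in DKO cortex. DKO 1 and DKO 3 were above the controls and DKO 2 was among them, and the log2 difference was 0.21 ± 0.09 (SE, limma adjusted p 0.330), or 0.32 without DKO 2 (adjusted p 0.0649). Itgb5, a vitronectin receptor subunit, showed the same order of DKO arrays, with 6.03, 6.30 and 6.05 in control and 6.68, 6.15 and 6.41 in DKO, and a difference of 0.29 ± 0.13 (SE, limma adjusted p 0.346). Itgb3, the subunit of platelets and endothelium, was at -0.01 ± 0.06 (SE), and Itgb4, the subunit of hemidesmosomes, at -0.08 ± 0.07 (SE). Without DKO 2 they were at 0.01 and -0.02. Both rows were dim, with control means of 6.06 and 5.78, near the medians of all rows. They could not be told from background. Itgb6, an epithelial subunit, lay below the filter in all arrays, at 4.34, 4.61 and 4.40 in control and 4.36, 4.28 and 4.26 in DKO, and was not tested. Whether the change of Itgb8 differed from that of the other beta subunits was not tested.

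None of the 10 alpha subunits passed the test, although 1 differed widely between the DKO embryos. The alpha-v subunit Itgav, the only partner of Itgb8, was at 7.84, 7.83 and 7.92 in control and at 8.08, 7.80 and 8.02 in DKO cortex, with a log2 difference of 0.10 ± 0.08 (SE) and a 95% interval from -0.08 to 0.29; its other row, with a mean of 4.48, lay below the filter. The interval of Itgav thus ends below that of Itgb8, which ran from 0.47 to 0.81. The difference of Itgav was 0.19 without DKO 2. Itga1, a collagen receptor subunit found on vessels and mesenchyme, had the largest alpha difference, 0.49 ± 0.17 (SE, limma adjusted p 0.209). Its signals were 6.92, 6.81 and 6.84 in control and 7.69, 6.92 and 7.42 in DKO, so that DKO 2 was level with the highest control array while the other DKO arrays were above it. Without DKO 2 the difference of Itga1 was 0.70 with an adjusted p of 0.0120. Itga8, the receptor subunit for nephronectin, had the lowest, -0.18 ± 0.08 (SE, limma adjusted p 0.338), with 6.38, 6.24 and 6.21 in control and 6.23, 6.06 and 6.02 in DKO, and the groups overlapped.

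The laminin receptor subunit Itga6, which with Itgb1 holds radial glia to the pial basement membrane, was the brightest alpha row and lay close together in both groups, at 8.84 ± 0.07 (SD, n = 3) in control and 8.82 ± 0.03 (SD, n = 3) in DKO. The interval of its difference ran from -0.17 to 0.13. Itga3, another laminin receptor subunit, was at 0.09 ± 0.08 (SE), and Itga7, a laminin receptor of muscle, at 0.02 ± 0.09 (SE). Itga5, which binds fibronectin, was at 0.12 ± 0.09 (SE) and Itga4, which binds fibronectin and Vcam1, at -0.11 ± 0.07 (SE). Itga2, a collagen receptor subunit, and Itga9, which binds tenascin, were at 0.03 and -0.06. With DKO 2 omitted, the differences were -0.01 for Itga6, 0.01 for Itga7, -0.06 for Itga4, 0.10 for Itga2 and 0.03 for Itga9. The rows of Itga3, Itga7 and Itga9 were dim, with control means of 5.89, 5.98 and 5.82, near the medians of all rows. They could not be told from background. Over the 15 tested integrin subunits 9 means were higher and 6 were lower in DKO, and the median difference was 0.03.

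Of the 7 laminin chains 0 rose and 0 fell, but the chains did not all lie on the same side of 0. Lamc1, the gamma chain of most laminins, was at 8.18, 8.01 and 8.07 in control and at 8.59, 8.24 and 8.45 in DKO cortex. All DKO arrays were above all control arrays, and the log2 difference was 0.34 ± 0.09 (SE, limma adjusted p 0.137). Lamb2, a beta chain of the basement membranes at the pia and at synapses, was at 8.11, 8.05 and 8.12 in control and at 8.41, 8.27 and 8.28 in DKO, without overlap, a difference of 0.23 ± 0.07 (SE, limma adjusted p 0.148). Lama5, an alpha chain of maturing basement membranes, also did not overlap between groups, with 0.22 ± 0.08 (SE, limma adjusted p 0.233). Lama1, the alpha chain of the earliest embryonic basement membranes, was at 0.16 ± 0.08 (SE). Lama2, the alpha chain of merosin, was at 0.09 ± 0.15 (SE). Without DKO 2 the difference was 0.24 for Lama1 and 0.26 for Lama2.

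The lowest laminin differences were those of Lamb1 and Lama4. Lamb1, the beta chain paired with Lama1 and Lama4 in many basement membranes, was at 7.69, 7.52 and 7.49 in control and at 7.46, 6.99 and 7.60 in DKO, a difference of -0.22 ± 0.14 (SE, limma adjusted p 0.532). Lama4, the alpha chain of endothelial basement membranes, was at 7.47, 7.24 and 7.28 in control and at 7.34, 6.71 and 7.39 in DKO. For both chains DKO 2 was the lowest array and DKO 1 and DKO 3 lay near the controls. Without DKO 2 the difference was -0.04 for Lamb1 and 0.03 for Lama4. The endothelial and pericyte markers of DKO 2 were lower as well, as given above, and their part in these differences was not tested.

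Hspg2 encodes perlecan, the heparan sulfate proteoglycan of basement membranes, and was at 8.21, 8.12 and 8.24 in control and at 8.73, 8.32 and 8.70 in DKO cortex. The groups did not overlap, but DKO 2 was only slightly above the controls. The log2 difference was 0.39 ± 0.11 (SE, limma adjusted p 0.138), and without DKO 2 it was 0.52 with an adjusted p of 0.0119. Vtn, which encodes vitronectin and is transcribed in the brain mainly by pericytes, had the lowest difference of all tested members, -0.44 ± 0.24 (SE, limma adjusted p 0.428). Its signals were 9.07, 8.65 and 8.54 in control and 8.51, 7.74 and 8.70 in DKO, so the groups overlapped and the array lowest in pericyte and endothelial markers was also lowest in Vtn. Without DKO 2 the difference of Vtn was -0.15, and the part of those markers in it was not tested.

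The nidogens, which link laminin to type IV collagen networks, showed the same low array. Nid1 was at 8.49, 8.15 and 8.13 in control and at 8.57, 7.72 and 8.31 in DKO, a difference of -0.06 ± 0.20 (SE), and its other row gave -0.14. Nid2 was at -0.24 ± 0.12 (SE, limma adjusted p 0.405). When DKO 2 was omitted, the difference of Nid1 turned to 0.19 and that of Nid2 was -0.13. Fn1, which encodes fibronectin, was the brightest matrix row, with 10.51, 10.44 and 10.48 in control and 10.66, 10.29 and 10.59 in DKO and a difference of 0.03 ± 0.10 (SE). DKO 1 and DKO 3 were above and DKO 2 below all controls, so the near-zero mean of Fn1 averages arrays on both sides; without DKO 2 it was 0.15. Over the 12 laminins and other matrix genes the median difference was 0.06, and 0.22 without DKO 2.

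**Figure D3:**
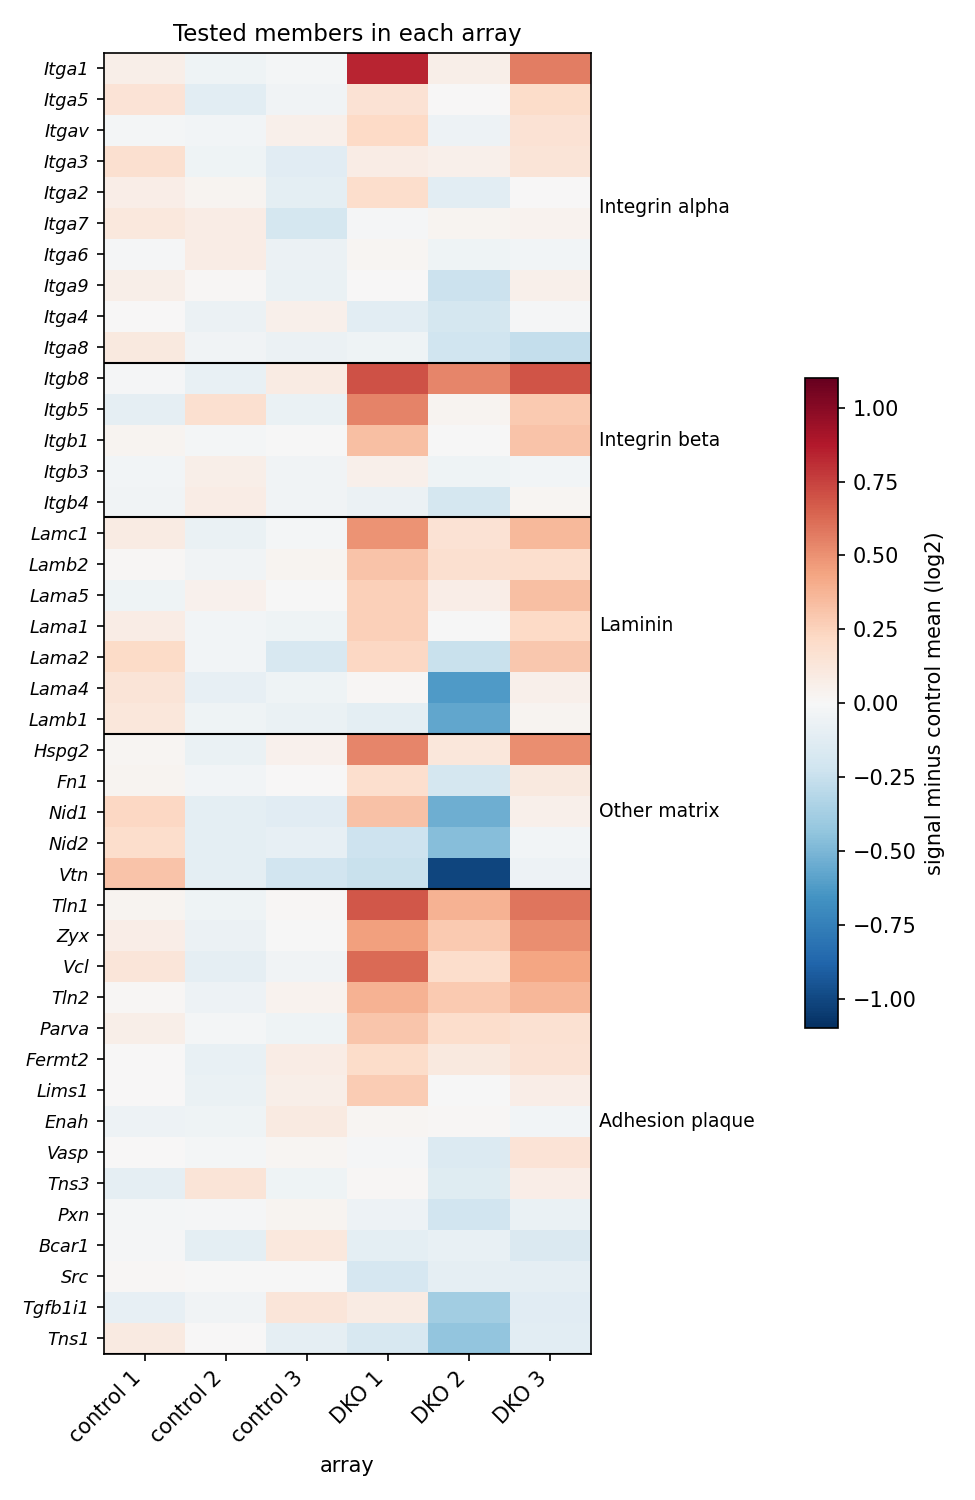
Each of the 42 tested members (rows, by role) in the 6 arrays (columns), as log2 signal minus the mean of the 3 control arrays, on a colour scale from blue (lower) to red (higher). Itgb8, Tln1, Tln2 and Zyx are red in all 3 DKO columns, while Vtn, Lama4, Lamb1, Nid1 and Nid2 are darkest blue in DKO 2.

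DKO 2 was the lowest DKO array for all 12 laminins and matrix genes, for 13 of the 15 tested integrin subunits and for 11 of the 15 tested plaque genes. That is 36 of 42 members (85.7%), against 42.9% of all genes tested, and 17 of the 18 endothelial and pericyte markers. Leaving out DKO 2 gave 7 members that rose and 0 that fell (16.7%, against 1.55% and 0.323% of all genes in that fit). The 7 were the 4 above with Itga1, Hspg2 and Vcl. Omitting any other single array (control 1, 2 or 3, DKO 1 or DKO 3) left Itgb8 as the 1 member that rose. Because the array was singled out by its marker values, the fit without it is a description of the other 5 embryos.

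**Figure D4:**
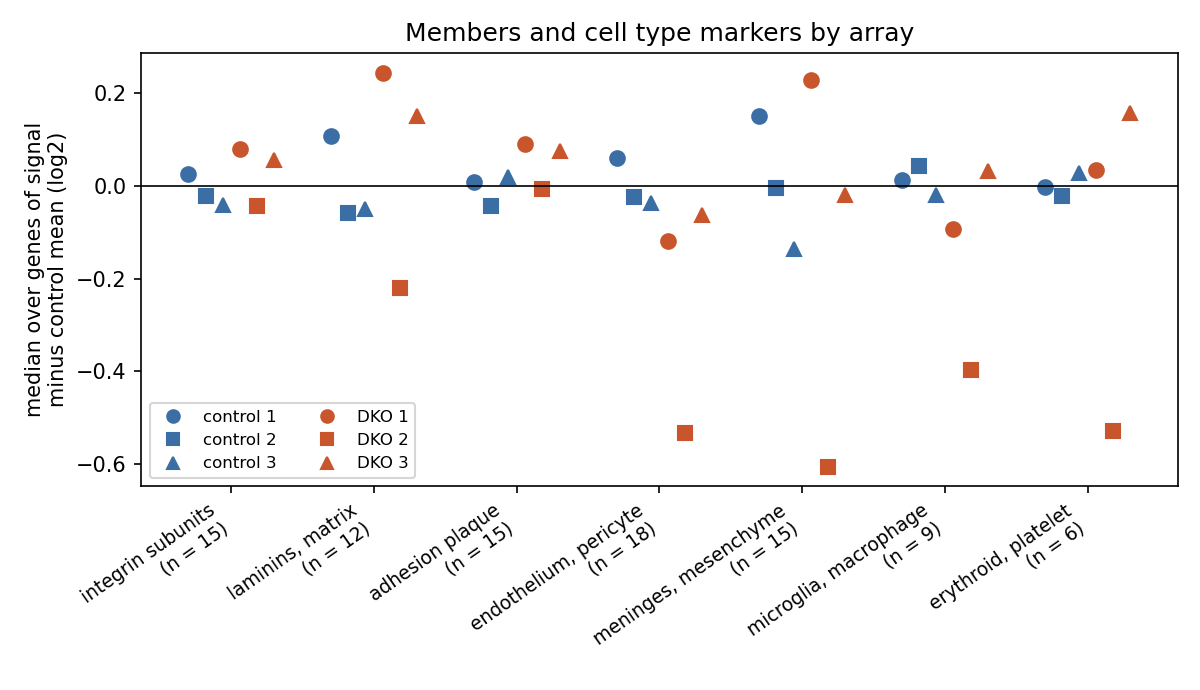
Median over the genes of a list of the log2 signal minus the control mean (y axis), for the 3 member groups and for 4 lists of cell type markers (x axis, with the number of genes), 1 point per array. In DKO 2 (orange square) the median was -0.22 for laminins and matrix genes and -0.53 for endothelial and pericyte markers, while it was -0.04 for integrin subunits and -0.01 for plaque genes.

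In the adhesion plaque, both talins and zyxin rose. Tln1 encodes the main talin, which binds beta subunit tails and switches integrins to their active form. It was at 8.17, 8.09 and 8.15 in control and at 8.82, 8.52 and 8.72 in DKO cortex. Every DKO array was above every control array, with a log2 difference of 0.55 ± 0.08 (SE), or 1.46-fold, and a limma adjusted p of 0.0160. Tln2, the talin of brain and muscle, was at 6.89, 6.82 and 6.92 in control and at 7.26, 7.17 and 7.24 in DKO. Its spread was small in both groups, and it rose by 0.35 ± 0.06 (SE), or 1.27-fold, with a limma adjusted p of 0.0334. Zyx encodes zyxin, a LIM protein that moves to adhesions and stress fibres under tension, and was at 8.84, 8.70 and 8.77 in control and at 9.22, 9.06 and 9.28 in DKO. The arrays of the groups were again apart, and Zyx rose by 0.42 ± 0.08 (SE), or 1.34-fold, with a limma adjusted p of 0.0371.

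The higher choroid plexus and hem markers and the lower neuron markers went with the same DKO arrays in which Itgb8, Tln1, Tln2 and Zyx rose, and their part in these increases was not tested.

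The calls of Tln1, Tln2 and Zyx were less firm than that of Itgb8. Omitting a single array ended each of them in 5 of 6 cases, the exception being DKO 2. The adjusted p rose at most to 0.0728 for Tln1 without DKO 3, to 0.134 for Tln2 without control 1 and to 0.131 for Zyx without DKO 1. In these fits the differences stayed between 0.48 and 0.63 for Tln1, between 0.32 and 0.37 for Tln2 and between 0.37 and 0.48 for Zyx. For each of the 4 genes an exact two-sided permutation test over the 6 arrays gave p = 0.1, the smallest that 3 against 3 allow.

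Vcl, which encodes vinculin, the protein that reinforces the bond of talin to actin, was at 7.90, 7.67 and 7.73 in control and at 8.39, 7.96 and 8.20 in DKO cortex. The groups did not overlap, but DKO 2 came close to control 1, and the difference of 0.41 ± 0.11 (SE) had a limma adjusted p of 0.127. Without DKO 2 it was 0.52 with an adjusted p of 0.0431. Parva, which encodes the actin-binding parvin of the complex of integrin-linked kinase, was at 0.22 ± 0.07 (SE, limma adjusted p 0.164), and Fermt2, the kindlin of most tissues, at 0.16 ± 0.07 (SE, limma adjusted p 0.306), both without overlap. Lims1, which encodes the LIM partner of the same kinase, was at 0.12 ± 0.09 (SE), and at 0.18 without DKO 2.

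The scaffold and signalling genes of the plaque lay near or below 0. Tns1, which encodes tensin, a link between integrin tails and actin, had the lowest plaque difference, with 7.82, 7.72 and 7.62 in control and 7.54, 7.29 and 7.60 in DKO cortex. All its DKO arrays were below the controls, DKO 3 by a narrow margin, and the difference was -0.24 ± 0.10 (SE, limma adjusted p 0.270). The kinase gene Src was at 8.19, 8.17 and 8.18 in control and at 7.99, 8.08 and 8.08 in DKO, also without overlap, a difference of -0.13 ± 0.06 (SE, limma adjusted p 0.342). Pxn, which encodes the scaffold paxillin, did not overlap between groups either, at -0.11 ± 0.07 (SE, limma adjusted p 0.469). Bcar1, the Src substrate p130Cas, was at -0.12 ± 0.07 (SE) and Tgfb1i1, the paxillin relative Hic-5, at -0.14 ± 0.12 (SE). Tns3 was at -0.02, and the actin polymerization factors Vasp and Enah had intervals from -0.19 to 0.18 and from -0.15 to 0.15. Leaving out DKO 2 gave -0.15 for Tns1, -0.06 for Pxn, -0.02 for Tgfb1i1, 0.04 for Tns3, 0.07 for Vasp and -0.01 for Enah. Fermt1, the epithelial kindlin, lay below the filter at 4.57 ± 0.15 (SD, n = 3) in control and 4.48 ± 0.04 (SD, n = 3) in DKO, and Ptk2 and Ilk had no row of their own. Over the 15 tested plaque genes 8 means were higher and 7 lower, and the median difference was 0.00 (0.07 without DKO 2).

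Other genes of the same pathway were taken from a further list of 85, of which 72 were tested. Of these, 6 rose and 0 fell (against 1.36% and 0.359% of all genes), and the median difference was -0.02. The list was chosen with earlier results of these data known, and its counts were not tested as a set. The matrix ligands, listed together with TGF-beta ligands, held 1 of the 6 in 16 tested genes, which was Tgfb2 and not a matrix gene. The plaque held 5 in 43, and the other integrins (8 tested) and laminins and netrins (5 tested) held 0. Tgfb2, which encodes a TGF-beta ligand, was at 7.23, 7.34 and 7.25 in control and at 8.58, 8.01 and 8.40 in DKO cortex. It rose by 1.06 ± 0.13 (SE), or 2.08-fold (limma adjusted p 0.00574), in all 3 DKO embryos, and omitting any single array did not end the call. Tgfb1, a ligand whose latent form carries the motif that alpha-v integrins recognise, was at -0.19 ± 0.11 (SE, limma adjusted p 0.485), and at -0.08 without DKO 2. A link between the increases of Tgfb2 and Itgb8 was not tested.

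**Figure D5:**
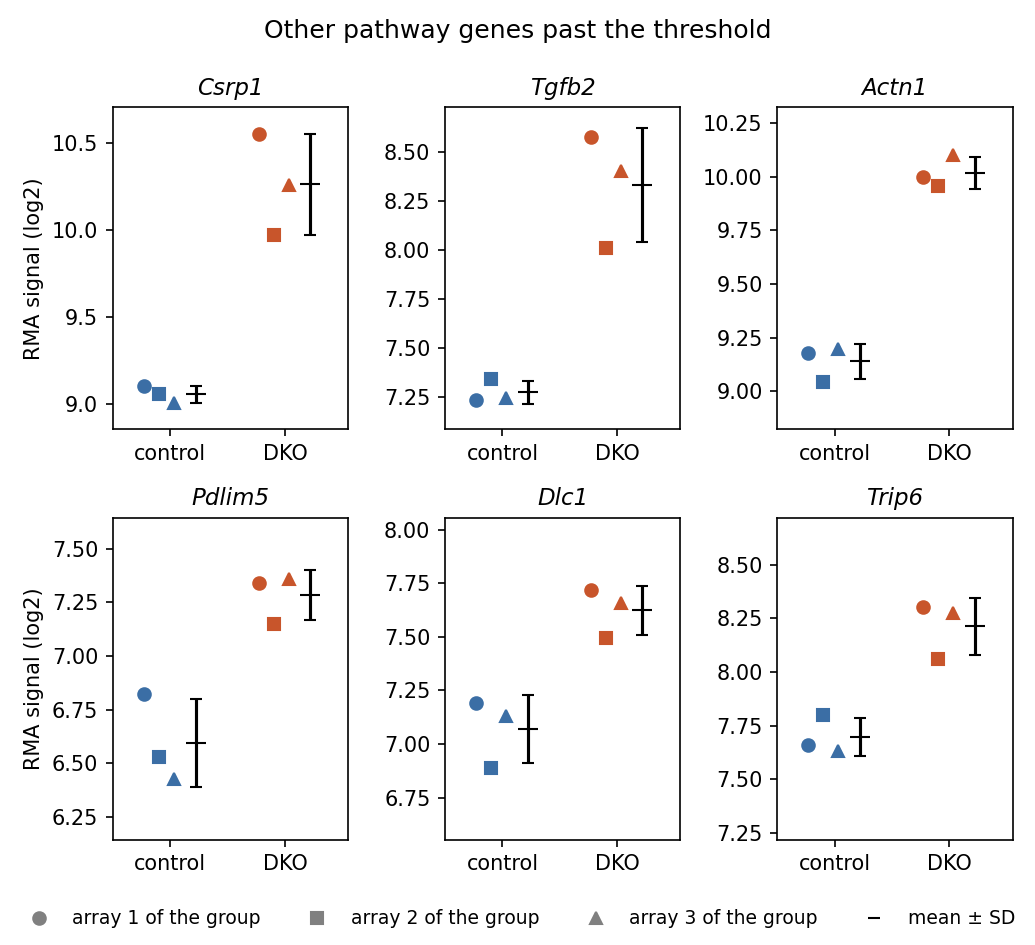
RMA signal (log2, y axis) of the 6 other pathway genes past the threshold in control (blue) and DKO (orange) arrays, 1 point per embryo with the mean ± SD of 3. No DKO point overlaps a control point, and the differences run from 0.51 for Trip6 to 1.21 for Csrp1.

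The plaque genes among them were Csrp1, Actn1, Pdlim5, Dlc1 and Trip6. Csrp1, a LIM protein of actin bundles, was at 9.11, 9.06 and 9.01 in control and at 10.56, 9.98 and 10.26 in DKO and rose 2.31-fold (limma adjusted p 0.00266). Actn1, the alpha-actinin that crosslinks actin at adhesions and binds zyxin and vinculin, was at 9.18, 9.04 and 9.20 in control and at 9.996, 9.96 and 10.10 in DKO and rose 1.84-fold (limma adjusted p 6.06e-04). Omitting any single array ended neither call. Pdlim5, a PDZ and LIM protein that binds actinin, rose by 0.69 ± 0.11 (SE, limma adjusted p 0.0189), Dlc1, a protein that binds talin and tensin, by 0.55 ± 0.10 (SE, limma adjusted p 0.0285), and Trip6, a relative of zyxin, by 0.51 ± 0.08 (SE, limma adjusted p 0.0230). The limma call of Pdlim5 held only without control 1 or DKO 2, that of Trip6 only without control 2 or DKO 2 and that of Dlc1 only without DKO 2, with adjusted p up to 0.0974 (DKO 1 omitted), 0.106 (control 1 omitted) and 0.118 (DKO 1 omitted) otherwise.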

How the data were processed

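RNA (100 ng per embryo) was labelled for Affymetrix whole-transcript arrays, per the labels' protocols. The deposited values are log2 signals made by RMA, per the submitters' processing notes; no source used here gives its version, software or genome build. RMA makes the distributions of probe signals equal across arrays before rows are summarised, so a shift shared by every transcript is invisible. The medians of the deposited rows ran from 5.94 to 5.97 over the arrays, and no detection call was at hand. The array number (3 per group) limits the precision.

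Of 41345 rows, 23521 had 1 gene symbol, 1814 several and 16010 are unnamed here. For a gene with several rows the brightest over 6 arrays was used. All 44 member symbols matched RefSeq (GRCm38.p6) through their gene identifiers. Genes with a mean below the 25th percentile (5.02) were left out. DKO was compared with control with limma 3.58.1 in R 4.3.3 (lmFit, eBayes, no covariate). SE and 95% intervals are limma's. In simulated data for DKO against control over 16724 genes, 60.2% of genes changed by 0.5, 95.8% by 1 and 99% by 1.5 were called, with 3.78% false calls. The simulated noise was independent between genes. It held no shift shared by many genes of an array, such as that of DKO 2, so these shares may not carry over.

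Array correlations lay between 0.978 and 0.994. Alternatives were other filters, rows, scalings, variance priors, array weights, a replicate block and leaving out each array. Members and lists were chosen with earlier results of these data known. Values by array are given for members past the threshold, the 8 smallest p and the extremes of each role; genes given beyond these were chosen after their values were seen. A planned search of protein motifs was not run.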

Additional observations from a re-analysis of the deposited data

How the results depend on the processing

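Itgb8 passed the threshold under every alternative run, and 0 members fell in any of them. The 4 calls were kept with the strict filter, mean of rows, repeated quantile normalization, median-centred arrays, trended or robust variance and array weights; with no filter, 3 were kept (Zyx at an adjusted p of 0.0503). Leaving out 1 array gave 1 to 7 members that rose. Whether the replicate numbers pair the arrays is not given in the sources used here. Deviations of same-numbered arrays correlated at -0.10, 0.21 and 0.15, and not every array correlated best with its own number. With 3 arrays per group these correlations cannot decide it. With the number as a replicate block, 2 members rose (Tln2 at 0.0796, Zyx at 0.0575), and 176 genes rose and 24 fell. Of all genes, 228 rose and 60 fell; 134 fell with the strict filter, 162 with a trended variance and 123 with array weights. Leaving out 1 array gave 121 to 260 that rose and 11 to 54 that fell, each with fewer samples. Over the fits without 1 array the integrin median ran from -0.0237 (without control 3) to 0.10. It was 0.12 with the strict filter, which left out Itga3, Itga7, Itga8, Itga9, Itgb3 and Itgb4 and changed no single difference. In the fits without 1 array the matrix median ran from -0.0075 (without DKO 3) to 0.22, and was -0.0072 without DKO 1. The plaque median ran from -0.0022 (without control 1) to 0.0691 (without DKO 2), and was 0.05 without control 2 and 0.05 without control 3. The cause of the other shifts was not tested. Of the simulated differences of 0.5 on the log2 scale 60.2% were called, and smaller ones were not simulated. Dim rows could not be told from background.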

Other observations

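Of the pathway genes below the threshold, Itgb2 and Fermt3 were chosen after their values were seen. Itgb2, the beta subunit of leukocytes, was at 5.89, 5.82 and 5.85 in control and at 5.56, 5.31 and 5.72 in DKO cortex, a log2 difference of -0.32 ± 0.10 (SE, limma adjusted p 0.181). Fermt3, the kindlin of blood cells, was at 6.09, 6.17 and 6.09 in control and at 5.70, 5.37 and 6.03 in DKO, a difference of -0.42 ± 0.14 (SE, limma adjusted p 0.216). In both genes the groups did not overlap (DKO lower, as in 13.4% of all genes) and DKO 2 was the lowest. Without DKO 2 the differences were -0.21 for Itgb2 and -0.25 for Fermt3. Microglia and macrophage markers were also lowest in DKO 2, and their part in these values was not tested.

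Among matrix ligands below the threshold, Npnt, which encodes the Itga8 ligand nephronectin, was at 6.71, 6.66 and 6.40 in control and at 7.15, 6.96 and 6.89 in DKO, a difference of 0.41 ± 0.10 (SE, limma adjusted p 0.0973). It was named after its values were seen, and Itga8 itself had a lower mean in DKO.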
